A study of Homo sapiens with 24 samples.

Results

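Argonaute 2 (Ago2) loaded with miRNAs was isolated by crosslinking and immunoprecipitation (CLIP) from 293S cells, which descend from human embryonic kidney, and the miRNAs of the excised "LO" band were sequenced with and without sodium arsenite. The members described here are all mature miRNA entries of the deposited table that combines both groups of this band: 1000 of its 1213 entries, the other 213 being stem and loop pieces of hairpins. These groups make up 8 of the 24 samples of the series, 4 untreated and 4 exposed to 1 mM arsenite for 30 min, all from adherent cells at the same stated density and all with the same Ago2 antibody. The remaining samples are Ago2 CLIP of longer RNA and RNA-seq of the same treatments. The line is 1 cell line, so the 4 biological replicates of a group share its genome.

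miRNAs are short RNAs cut from hairpin precursors by Drosha and then Dicer. A duplex of the 5p and the 3p arm results, and Argonaute usually keeps one arm as the guide and discards the other. The seed near the 5′ end of the guide pairs with target mRNAs, so miRNAs with 1 seed form a family with overlapping targets, and neighbouring hairpins are often cut from 1 long transcript. Sodium arsenite causes oxidative stress, blocks most translation and drives mRNAs into stress granules. The comparison asks whether the set of miRNAs held by Ago2 differs after a short exposure.

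The leading miRNAs are shown first, because most of the Ago2-bound pool carried one of their seeds. Sequences are RefSeq's mature miRNAs (GRCh38.p14), 5′ to 3′, with the seed, bases 2 to 8, in capitals.
miR-30e-5p: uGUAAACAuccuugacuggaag
miR-30a-5p: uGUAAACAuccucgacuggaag
miR-196b-5p: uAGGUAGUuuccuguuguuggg
miR-196a-5p: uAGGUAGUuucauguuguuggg
miR-19b-3p: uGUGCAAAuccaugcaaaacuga
miR-19a-3p: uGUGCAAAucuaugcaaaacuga
miR-16-5p: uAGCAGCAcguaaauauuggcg
miR-374b-5p: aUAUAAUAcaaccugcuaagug
miR-17-5p: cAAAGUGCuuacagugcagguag
miR-20a-5p: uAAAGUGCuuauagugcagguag
miR-27a-3p: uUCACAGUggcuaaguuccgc
miR-31-5p: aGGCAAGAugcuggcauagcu
The pairs miR-30a-5p and miR-30e-5p, miR-196a-5p and miR-196b-5p, and miR-19a-3p and miR-19b-3p each differ at 1 position, and miR-17-5p and miR-20a-5p at 2. How reads that match several such names were counted is not given in the sources used here, so the split within a pair is less certain than its sum.

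The 11 miRNAs with a mean of at least 100 and an unadjusted p under 0.05 in the authors' deposited table are discussed further on, and 10 of them, beside miR-31-5p above, have these sequences.
miR-324-3p: cCCACUGCcccaggugcugcugg
miR-324-5p: cGCAUCCCcuagggcauuggug
miR-18a-3p: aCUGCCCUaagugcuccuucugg
miR-423-5p: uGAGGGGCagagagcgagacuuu
miR-103a-2-5p: aGCUUCUUuacagugcugccuug
miR-760: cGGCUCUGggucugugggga
miR-4523: gACCGAGAgggccucggcugu
miR-197-3p: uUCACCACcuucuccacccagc
miR-361-5p: uUAUCAGAaucuccagggguac
miR-628-3p: uCUAGUAAgaguggcagucga
RefSeq's present 5′ ends can differ from those of miRBase 18, whose names the table uses. The authors' peak table, which assigns seeds to CLIP peaks, lists miR-324-3p in 1 family with miR-1913, whose seed CUGCCCC starts at base 5 of the sequence printed above. The seed marked for miR-324-3p is therefore that of RefSeq and may not be the one the authors used.

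Values are the authors' means per treatment of read counts scaled by size factors, and no value of a single replicate is in the tables used here. A replicate spread could therefore not be computed, no test beyond the authors' own DESeq p could be run, and the depth of each library is unknown. The summed mature means were 18365643 without and 17454462 with arsenite, a log2 ratio of -0.07, and these sums are on the authors' scale and are not read totals. Shares and arm ratios below are taken from these scaled CLIP counts. How well each miRNA was captured and sequenced was not calibrated, so they are not molar amounts held by Ago2. Fold changes below are log2 of the arsenite mean over the untreated mean.

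A small number of miRNAs made up most of the counted pool. The 10 most abundant held 63.3% of the summed mature means, 7 held 50%, 30 held 90% and 139 held 99%. At the other end, 423 entries with a mean under 20 together held 0.016%. In untreated cells 36 entries were listed at 0, and with arsenite 31 were. The distribution had the same shape in each treatment, with 63.8% in the 10 most abundant without and 62.8% with arsenite, and with 29 and 31 miRNAs holding 90%.

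miR-196b-5p led the list. Its mean was 2333835 untreated and 2301175 with arsenite, or 12.7% and 13.2% of the sum, a log2 fold change of -0.02. It comes from chr7:27169528-27169549 on the minus strand (GRCh38.p14), between the homeobox genes HOXA9 and HOXA10, within the read-through gene HOXA10-HOXA9. HOX genes specify position along the body axis, and the miR-196 family is known to target HOX mRNAs. Its relative miR-196a-5p, from the HOXB and HOXC clusters, held 1.36% with a log2 fold change of 0.02. The HOX cluster list, which also has miR-10a, miR-10b and miR-615, held 14.1% untreated and 14.7% with arsenite, nearly all of it miR-196. miR-10a-5p had means of 8492 and 10764, and miR-615-3p of 2037 and 2002.

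miR-30, known from kidney epithelium and for restraining the epithelial to mesenchymal switch, was the largest family. Its 5 members share the seed GUAAACA and held 24.3% of the sum, at a log2 ratio of -0.16. miR-30e-5p, at chr1:40754371-40754392 on the plus strand inside NFYC, had means of 2014629 and 1784402. miR-30a-5p, at chr6:71403595-71403616 on the minus strand with no spanning RefSeq gene, had 1432076 and 1295064, and miR-30d-5p had 1093886 and 967726. These 3 were lower with arsenite by similar amounts, with log2 fold changes of -0.18, -0.15 and -0.18. The scarcer miR-30c-5p, with means of 26640 and 35971, and miR-30b-5p, with 29010 and 33597, were higher, at 0.43 and 0.21. The authors' deposited table gives unadjusted p of 0.0598 for miR-30c-5p and 0.331 for miR-30b-5p, and whether members of the family differ from each other was not tested.

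**Figure D1:**
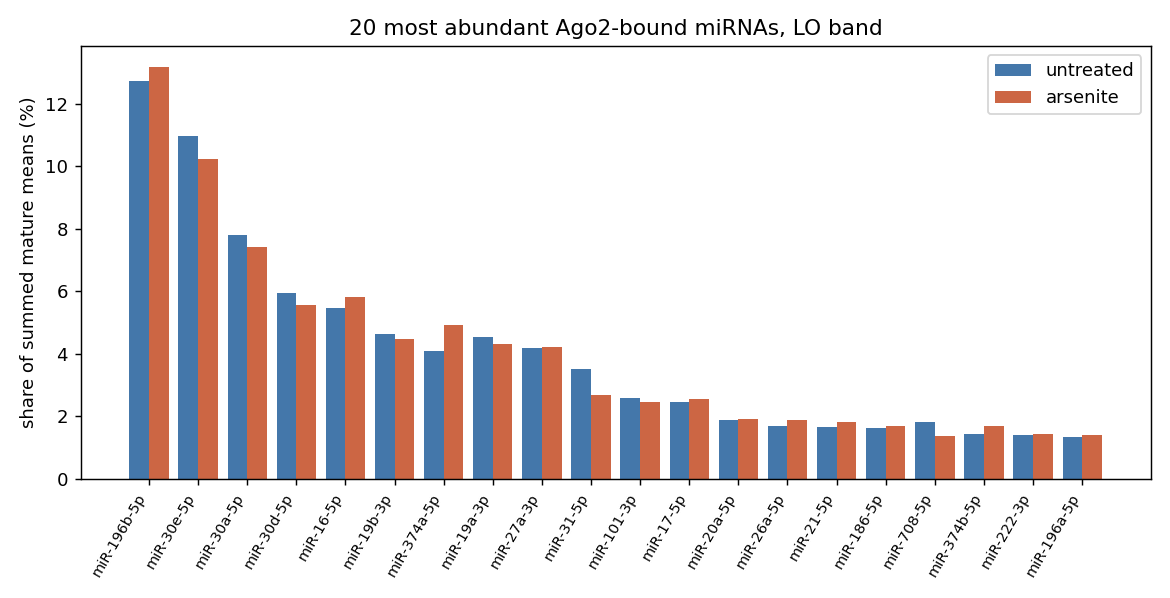
Share of the summed mature means, in percent, of the 20 most abundant Ago2-bound miRNAs, from the authors' means without (blue) and with arsenite (orange); no error bars can be drawn without replicate values. The bars of each pair stand close, from 12.7% and 13.2% for miR-196b-5p downward, and gaps relative to bar height are wide at miR-374a-5p, miR-31-5p and miR-708-5p.

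Other families filled much of the rest. miR-19 held 8.99% of the sum. miR-15/16, known to restrain cyclins and BCL2, held 6.09%, of which miR-16-5p made up 92.6%. miR-16-5p was among the steadiest, with means of 1001623 and 1016984 and a log2 fold change of 0.02. The miR-374 family held 6.05%, miR-17 5.70%, miR-27 4.77%, miR-31 3.10%, miR-101 2.52%, the pair miR-221 and miR-222 2.51%, miR-25/92 2.36% and miR-26 1.95%. Together the 12 largest of 684 seed families held 82.7%. The let-7 family, abundant in many differentiated tissues, held 0.337% across 9 members, and its leading member let-7a-5p had means of 19128 and 21593.

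Of the 12 leading families, miR-31 and miR-374 stood farthest from 0 under arsenite. miR-374 was higher at a log2 ratio of 0.18. miR-374a-5p had means of 751439 and 860488 (log2 0.20) and miR-374b-5p 264665 and 291899 (0.14). Both hairpins lie on the X chromosome, MIR374A within the long noncoding RNA gene FTX. The authors' deposited table gives unadjusted p of 0.367 for miR-374a-5p and 0.535 for miR-374b-5p.

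No mature miRNA passed an adjusted p of 0.05 in the authors' deposited DESeq table, where the adjusted p is 1 for every one (0 of 1000, a background of 0%). At an unadjusted p under 0.05 the authors' deposited table holds 19 of 1000 entries, or 1.9%. Among the 380 entries with a mean of at least 100 it holds 11 (2.89%), 3 of them higher with arsenite (0.789%) and 8 lower (2.11%). If no entry differed and p were evenly spread, a fraction of 0.05 would pass this threshold. The shares of 1.9% and 2.89% lie below that, so the 11 are described here and not called as responders to arsenite. After a Benjamini-Hochberg adjustment over those 380 alone, the smallest adjusted DESeq p was 0.732, which 4 miRNAs share (miR-197-3p, miR-361-5p, miR-423-5p and miR-324-3p). Of the 380, 15 differed by at least 1.5-fold (3.95%), 6 higher (1.58%) and 9 lower (2.37%).

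By rank and level the pools of both treatments lay close together. Over the 380 miRNAs the median log2 fold change was 0.02 and the median absolute value 0.18, with 243 (63.9%) within 1.2-fold. The 10 most abundant miRNAs were the same in both treatments, 29 of the top 30 were shared, and 98 of the top 100. Pearson's r of the log2 means was 0.996 and Spearman's rho 0.992 over the 380 miRNAs, which come from the same libraries and span several orders of magnitude. Of the 30 most abundant, 26 lay within 1.2-fold. The other 4 were miR-31-5p, miR-708-5p, miR-193b-3p and miR-324-3p, all lower with arsenite.

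How large a difference these data could have shown was read from the fold change and the unadjusted p in the authors' deposited table, taking the p as that of a normal statistic. This gives an approximate standard error of the log2 fold change, with a median of 0.80 for means of 20 to 100, 0.36 for 100 to 1000, 0.26 for 1000 to 10000 and 0.23 above 100000. A 95% interval then reaches about 1.63-fold to either side at 100 to 1000, and 1.37-fold above 100000. At the median error, smaller differences would not reach an unadjusted p of 0.05 with 4 replicates, and an unadjusted p that misses 0.05 does not show that a miRNA was the same.

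miR-31-5p, known for repressing RHOA and other genes of cell movement, was the most abundant miRNA with an unadjusted p under 0.05. Its mean was 641871 untreated and 467905 with arsenite, 1.37-fold lower, or from 3.49% to 2.68% of the sum. The log2 fold change was -0.46, with an approximate error of 0.23, and the authors' deposited table gives an unadjusted p of 0.0483. It lies at chr9:21512158-21512178 on the minus strand, within the span of the noncoding RNA gene MIR31HG. The opposite arm, miR-31-3p, had means of 1497 and 1595, a log2 fold change of 0.09.

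Both arms of miR-324 were lower with arsenite. miR-324-3p, at chr17:7223308-7223330 on the minus strand within the span of ACADVL, had means of 159639 and 105288. Strand was not compared when spanning genes were found, so the hairpin may lie antisense to ACADVL. miR-324-5p, at chr17:7223343-7223364, had 5412 and 3626. The log2 fold changes were -0.60 and -0.58, and the authors' deposited table gives unadjusted p of 0.00771 and 0.0131. The 5p share of the hairpin was 3.28% untreated and 3.33% with arsenite, so the arms kept their proportion.

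The other 5 lower miRNAs with an unadjusted p under 0.05 included minor arms and scarcer miRNAs. miR-18a-3p, the minor arm of a miR-17-92 hairpin, had means of 26880 and 18110 (log2 -0.57). miR-423-5p, from within the span of the splicing regulator gene NSRP1, had 2361 and 1451 (-0.70). miR-103a-2-5p, the minor arm of a hairpin within the pantothenate kinase gene PANK2, had 2143 and 1451 (-0.56). miR-760 had 3237 and 2296 (-0.50) and miR-4523 had 775 and 518 (-0.58). In the authors' deposited table the unadjusted p of these 5 run from 0.00688 for miR-423-5p to 0.0429 for miR-4523.

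The 3 higher miRNAs came from separate loci. miR-197-3p, at chr1:109598940-109598961 on the plus strand within GNAI3, had means of 1464 and 2536, 1.73-fold higher, and the authors' deposited table gives an unadjusted p of 0.00258, the smallest among these 11. miR-361-5p, at chrX:85903681-85903702 on the minus strand within CHM, had 1358 and 2232, 1.64-fold higher, with an unadjusted p of 0.00682 in the authors' deposited table. miR-628-3p had 148 and 267, 1.80-fold higher, with an unadjusted p of 0.0396 in the authors' deposited table.

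**Figure D2:**
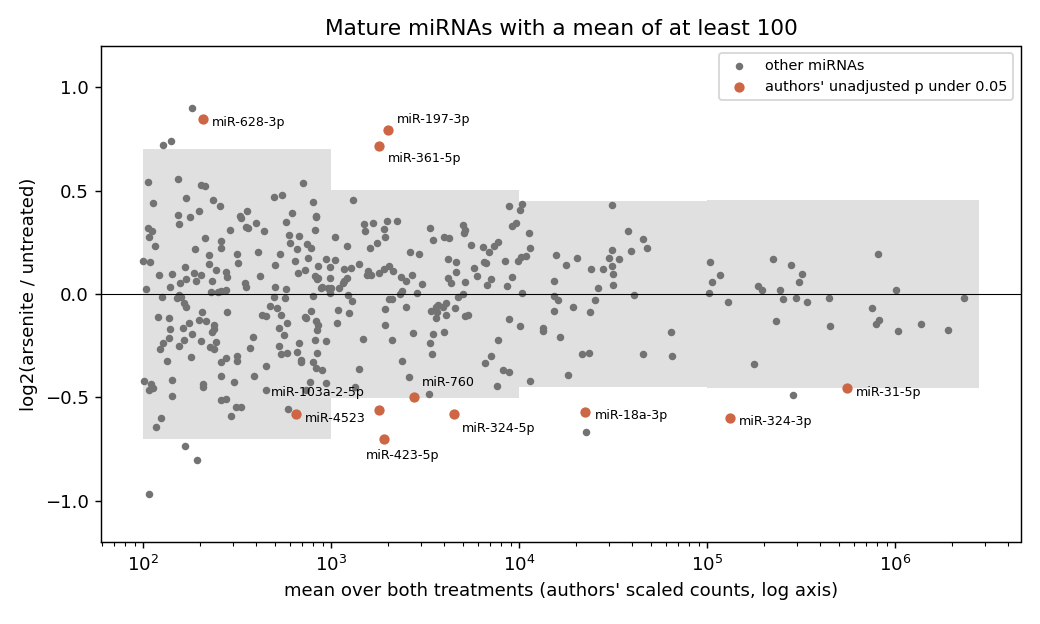
Log2 ratio of the arsenite to the untreated mean against the mean over both treatments (log axis) for the 380 mature miRNAs with a mean of at least 100, one point per miRNA; the grey band is the approximate 95% half-width implied by the authors' p in each range of means. The 11 miRNAs with an unadjusted p under 0.05 (orange) are named, and the spread of the other points narrows from left to right.

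Among the largest fold changes at a mean of at least 100, several belonged to scarce miRNAs. The lowest were miR-1271-3p (log2 -0.97, 1.95-fold lower), miR-4685-3p (-0.80), miR-624-5p (-0.73) and miR-423-5p (-0.70). The highest were miR-5008-5p (0.90, means 126 and 236), miR-628-3p (0.85), miR-197-3p (0.79) and miR-33a-3p (0.74). The authors' deposited table gives unadjusted p of 0.0516 for miR-1271-3p and 0.142 for miR-5008-5p. miR-449a was the abundant one in this group, with means of 27633 and 17427 (log2 -0.67), but the p in the authors' deposited table is 0.348 and the approximate error is 0.71.

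miR-449a shares its seed GGCAGUG with miR-34a-5p, miR-449b-5p and miR-34c-5p, a family known to be induced by p53 or in cells that form cilia. All 4 members were lower with arsenite, at log2 fold changes of -0.67, -0.39, -0.48 and -0.43, and the summed family was at -0.54 while holding 0.251% of the sum. The approximate errors, from 0.57 to 1.04, exceeded each of these values, and the unadjusted p in the authors' deposited table runs from 0.348 to 0.706. miR-708-5p and miR-28-5p, which share the seed AGGAGCU, were singled out after their values were seen. miR-708-5p, from within the span of TENM4, had means of 334495 and 238666 (log2 -0.49), and miR-28-5p 2956 and 2241 (-0.40). The authors' deposited table gives unadjusted p of 0.169 and 0.129 for these, both over 0.05.

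Most hairpins had mainly 1 arm in the counted pool. Arms were paired by name, which gave 430 hairpin names, of which 251 had both arms listed, 83 only the 5p and 96 only the 3p arm. Names with a locus number in only 1 arm were not paired, such as miR-16-5p with miR-16-1-3p, or miR-19b-3p with miR-19b-1-5p. The 83 and 96 therefore include hairpins with both arms listed under unlike names, and the arm ratios below leave these hairpins out. The 5p entries held 71.6% of the sum, the 3p entries 27.5% and entries without an arm in their name 0.900%. Of 172 hairpins with both arms and a summed mean of at least 100, the 5p arm was the more abundant in 100 and the 3p arm in 72. One arm made up over 99% in 59 hairpins and over 90% in 114, and 29 hairpins had a 5p share between 25% and 75%. The median ratio of the major to the minor arm was 38.2.

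Among hairpins paired by name, the most abundant were also among the most one-sided. miR-196b-5p exceeded miR-196b-3p (means 130 and 95.1) 20582-fold. The 5p share was 99.9% in miR-30e and miR-30a, 99.5% in miR-30d and 99.7% in miR-31. miR-27a and miR-19a kept the other arm, with 5p shares of 0.000162% and 0.0307%. miR-17 was less extreme at 97.1%, its 3p arm having means of 14208 and 12684.

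Some hairpins had both arms well represented in the pool. miR-106b, which lies with miR-93 and miR-25 inside the replication gene MCM7, was the abundant case. Its 3p arm had means of 243816 and 222575 and its 5p arm 101951 and 102171, a 5p share of 30.4%. The arms carry unlike seeds, so Ago2 held 2 families from this hairpin.
miR-106b-5p: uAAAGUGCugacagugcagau
miR-106b-3p: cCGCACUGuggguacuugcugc
With a sum of at least 1000, the most even hairpins were miR-590 (5p share 45.7%), miR-126 (57.9%), miR-452 (58.0%), miR-339 (62.6%), miR-140 (63.6%), miR-18b (64.7%), miR-502 (65.6%) and miR-342 (66.0%). miR-140, from within the span of WWP2 and known from cartilage, had 5p means of 8775 and 6448 and 3p means of 4279 and 4446. Of 126 hairpins with a sum of at least 1000, 79 had a minor arm with a mean of at least 100 and 4 had one of at least 10000 (miR-17, miR-106b, miR-186 and miR-18a).

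Major and minor arms differed in their first base. Argonaute's MID domain is known to favour U or A at the 5′ end of a guide. A RefSeq sequence was matched for 802 of the 1000 names (86.9% of the sum). Weighted by the means, 76.9% of the matched pool began with U, 14.2% with A, 8.21% with C and 0.628% with G, and U stood at 76.4% without and 77.5% with arsenite. Unweighted, U began 44.2% of the 303 matched miRNAs with a mean of at least 100 and 35.2% of the 347 with a mean under 20. Among 105 hairpins with both arms matched and a sum of at least 1000, 59 major arms but 20 minor arms began with U, whereas 16 major and 43 minor arms began with C. Pooled by mean, lengths of 21, 22 and 23 bases made up 15.5%, 60.3% and 23.6%, from RefSeq's sequences and not from the reads.

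Arm use was compared between treatments through the 5p share. Of the 172 hairpins, 105 differed by under 1 percentage point in their 5p share and 6 by at least 10 points, and the median absolute difference was 0.642 points. A share near 50% responds more to a given fold than one near 0 or 100. Of the 29 hairpins with a share of 25% to 75%, 5 differed by at least 10 points, 17 by at least 5 and 1 by under 1, with a median of 5.59 points. Of the 143 others, whose shares leave little room, 1 differed by at least 10 points and the median was 0.289. The more abundant arm was the same in both treatments for all but miR-628, whose 5p share was 52.9% without and 47.4% with arsenite.

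With a sum of at least 1000, 3 hairpins differed by at least 10 points, all toward the 5p arm. The 5p share of miR-339 was 56.0% untreated and 68.9% with arsenite, that of miR-660 67.4% and 80.2%, and that of miR-18a 62.0% and 73.9%. In each, the 5p mean was higher and the 3p mean lower with arsenite. For miR-18a, of the miR-17-92 cluster, the 5p means were 43912 and 51226 and the 3p means 26880 and 18110.
miR-18a-5p: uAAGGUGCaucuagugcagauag
The sequence of its 3p arm is given above. For miR-339 the 5p means were 1958 and 2500 and the 3p means 1539 and 1126, and for miR-660 they were 725 and 941 against 351 and 233. The authors' deposited table gives unadjusted p for the 3p arms of 0.0113 (miR-18a), 0.0754 (miR-339) and 0.300 (miR-660), and the difference between arms was not tested. Smaller differences followed in miR-361 (66.0% and 74.7%), miR-140 (67.2% and 59.2%), miR-18b (61.2% and 67.8%), miR-423 (76.7% and 71.1%) and miR-744 (78.0% and 72.4%).

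**Figure D3:**
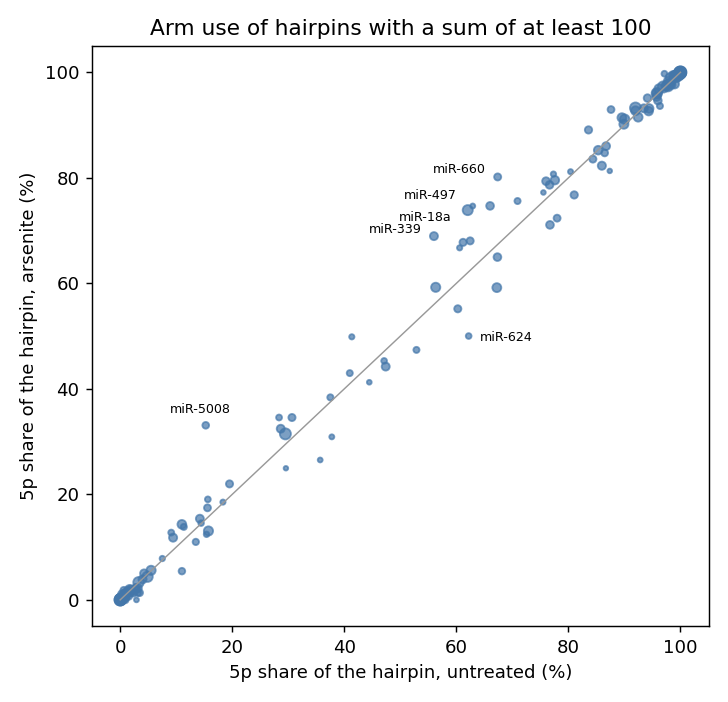
5p share of each hairpin with arsenite against that without, in percent. Shown are the 172 hairpins with both arms listed under 1 name and a summed mean of at least 100. Larger points have larger sums and the line marks equal shares. Most points lie at the corners, 59 of them over 99% one arm, and the 6 named hairpins differ by at least 10 points.

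Arms of 1 hairpin did not track each other closely. In 89 hairpins with both arms at a mean of at least 100, the fold changes had the same sign in 54, and Pearson's r was 0.09 and Spearman's rho 0.14 over these hairpins, whose arms come from the same libraries. Over all miRNAs, median absolute log2 fold changes were 0.23 at means of 100 to 1000 and 0.16 at 1000 to 10000. The median approximate errors there, 0.36 and 0.26, are larger, so a weak correlation does not show that arms moved separately. Minor and major arms had similar medians. Over the 79 hairpins with a sum of at least 1000 and a minor arm of at least 100, the median log2 fold change was 0.02 for the major and 0.03 for the minor arm, and the minor arm was the higher of the pair in 42.

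Clustered hairpins supplied most of the pool. With hairpins chained where RefSeq places them within 10 kb of each other, 255 hairpins fell into 84 clusters, and names with any locus in a cluster held 60.5% of the sum. Names whose single locus lies in a cluster held 47.3%. Another 90 names, holding 19.5% of the sum, have several loci, whose contributions cannot be told apart from a mature sequence. Such names are counted in full in each of their clusters below. Unless said to be found by distance, these clusters come from a list chosen for this description. In that list miR-30a/30c-2, and the miR-125b hairpins placed with let-7c and let-7a-2, lie beyond the 10 kb limit. A summed ratio follows the most abundant member: in 12 of 28 listed clusters the sign differed when the median was taken or when shared names or the leading member were left out. Of the 330 hairpins behind miRNAs with a mean of at least 100, 291 lie within the span of a RefSeq gene, with strand not compared. A gene named here as spanning a hairpin is therefore not shown to be its host transcript.

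The miR-17-92 cluster, in the transcript MIR17HG on chromosome 13 and known as a MYC target that promotes growth, held 15.1% of the sum. Its log2 ratio was -0.07, and its 11 members with a mean of at least 100 ran from -0.57 (miR-18a-3p) to 0.29 (miR-19b-1-5p). The major arms lay closer together, from -0.14 for miR-19a-3p to 0.22 for miR-18a-5p. They differed far more in level than in response. Means ran from 851532 untreated for miR-19b-3p, which has a second locus on the X chromosome, to 43912 for miR-18a-5p. The paralogous cluster miR-106b-25 held 3.59% at a log2 ratio of -0.02, with members from -0.13 to 0.09. The X-linked miR-106a-363 held 5.91%, but 77.2% of that is miR-19b-3p, and without the names it shares with miR-17-92 its log2 ratio was -0.004, and without miR-19b-3p alone 0.16.

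The miR-30 clusters were dominated by 1 member each. miR-30e/30c-1 held 10.8%, miR-30a/30c-2 7.80% and miR-30b/30d 5.96%, with log2 ratios of -0.16, -0.13 and -0.16, and the leading member made up 98.3%, 97.7% and 96.6% of them. Without that member the log2 ratios were 0.43, 0.43 and 0.19. The first 2 of these values rest largely on miR-30c-5p, which is counted in both.

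Other abundant clusters had log2 ratios on either side of 0. miR-15a/16-1, within DLEU2, held 6.02% at 0.01, and miR-15b/16-2, within SMC4, 5.68% at 0.02, both mainly through the shared miR-16-5p, without which they stood at -0.18 and -0.06. miR-23a/27a/24-2 held 4.30% at -0.07 and miR-221 with miR-222, known to repress the cell cycle inhibitor CDKN1B, 2.51% at -0.005. miR-374a with miR-545 held 4.51% at 0.20, or -0.04 without miR-374a-5p, and miR-374b with miR-421 1.61% at 0.14. miR-193b with miR-365a, found by distance and singled out after its value was seen, held 0.991% at -0.34, of which miR-193b-3p made up 99.7%.

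The scarcer clusters spread more widely. The X-linked cluster of miR-188, miR-532, miR-500, miR-501, miR-502, miR-362 and miR-660, within the chloride channel gene CLCN5, held 0.305%. Of its 13 members with a mean of at least 100, 11 were higher with arsenite, against 202 of the 380 (53.2%) of that abundance, and the median was 0.30. Its most abundant member, miR-188-5p, was lower, with means of 23714 and 19422, so the summed cluster stood at 0.06. In the authors' deposited table the unadjusted p of these 13 members runs from 0.119 for miR-502-5p to 0.781 for miR-502-3p. The members come from the same libraries and are not replicates, and the cluster as a set was not tested. In miR-183, miR-96 and miR-182, expressed in sensory cells, the 5p arms were all higher, at 0.17, 0.25 and 0.43, and the sum at 0.23. The only other member with a mean of at least 100, miR-182-3p, was lower, at -0.49. For miR-182-5p, with means of 8765 and 11844, the authors' deposited table gives an unadjusted p of 0.0560. The same column gives 0.477 for miR-183-5p, 0.249 for miR-96-5p and 0.519 for miR-182-3p. The miR-449a/b/c cluster within CDC20B, found by distance, held 0.149% and was lower at -0.63, and miR-34b/c was lower at -0.42.

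**Figure D4:**
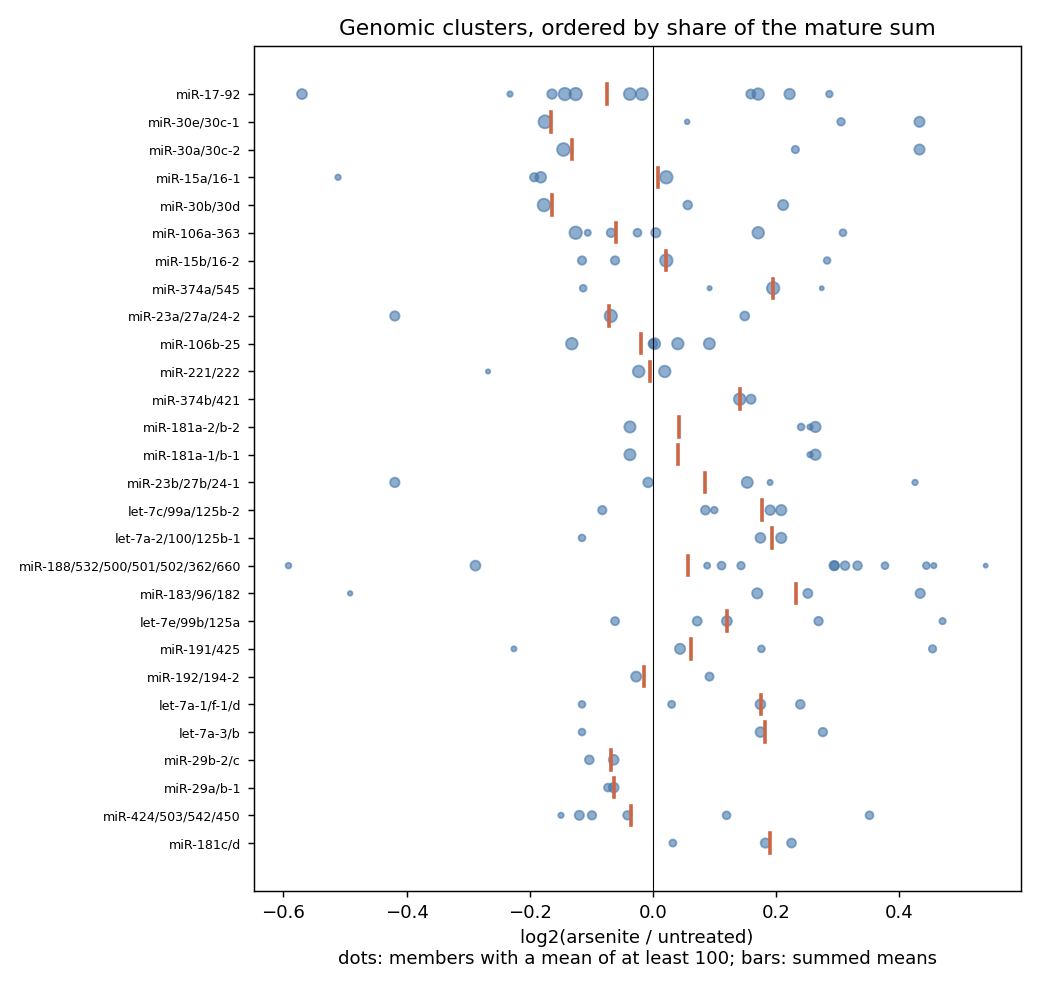
Log2 ratio of the arsenite to the untreated mean for those clusters of the list chosen for this description that hold at least 0.1% of the sum, ordered by share; clusters found by distance alone, such as miR-449a/b/c, are not drawn; dots are members with a mean of at least 100 (larger for larger means) and bars the summed means, with no replicate error available. Drawn bars lie between -0.16 and 0.23, while their single members reach -0.59 and 0.54.

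Short lists of miRNAs were described by their counts, beside 202 higher and 178 lower among all 380 miRNAs with a mean of at least 100 (53.2% higher, median 0.02). Of 9 entries with a mean of at least 100 among those known from hypoxia and oxidative stress (miR-210, miR-21, miR-34a, miR-155, miR-200c, miR-141 and miR-144), 2 were higher and 7 lower. The median was -0.17 and the summed log2 ratio 0.03, the sum being mostly miR-21-5p, with means of 302876 and 315923. miR-210, the hypoxia-induced miRNA, had 16147 and 15839. Of 6 entries known to be made without Drosha, 5 were higher and 1 lower, with a median of 0.27. miR-320a had means of 6107 and 6809, miR-320b 578 and 839, and miR-877-5p, cut from a spliced intron, 1318 and 1670, whereas miR-484 had 8283 and 7103. In the list of growth miRNAs 6 entries were higher and 8 lower, at a median of -0.02. These 3 lists and the HOX list have 0 entries with an unadjusted p under 0.05 in the authors' deposited table, where the share over the 380 is 2.89%, so 0 in lists this short lies near that share.

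Markers of other cell types were scarce in the pool. The 11 marker lists together hold 58 entries, and these made up 0.621% of the untreated and 0.695% of the arsenite sum. Liver miR-122 and myeloid miR-223 are not listed, and the placental, pluripotent and smooth muscle lists had no entry with a mean of at least 100. The renal tubule list held 0.178% and 0.188%, led by miR-194-5p, and the islet list 0.171% and 0.197%, nearly all miR-7-5p, which neurons also express. The neuronal list held 0.110% and 0.123%, with miR-9-5p at 8515 and 8747. The endothelial list, miR-126 alone, held 0.0841% and 0.112%. The epithelial list held 0.0455% and 0.0445%, the blood list 0.0231% and 0.0229%, and the muscle list 0.00682% and 0.00716%.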

How the data were processed

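miRNAs were measured by Ago2 CLIP of the LO band in 4 untreated and 4 arsenite-treated samples of 293S cells. In the authors' deposited table, entries carry miRBase 18 names. Per the file headers, the authors deposited DESeq base means, a signal in which scaled read counts were averaged over the replicates of a treatment. The authors also give a deposited fold (the ratio of both means), its log2, and deposited DESeq p-values with their adjusted form. Whether replicate pairs entered that test is not stated. From a second table by the authors, only the seed families listed per CLIP peak were used. The authors' tools for these samples, per the submitters' processing notes, were Bowtie and DESeq, with the build hg19. The role of each, trimming and the assignment of reads to names are not given in the sources used. 0 columns hold single samples, so depth per library is unknown and no own test across replicates was possible.

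From the means, Python 3.11.15 (pandas 2.3.3, numpy 2.4.6, scipy 1.17.1) computed log2 ratios, shares of the summed mature means, 5p shares, and sums per cluster, family and list. A mean of at least 100 was required for counts of single miRNAs. Seeds are bases 2 to 8 of RefSeq's sequences (GRCh38.p14), and 14 names without one took their family from the peak table. The code was tested on simulated data. Members, clusters and lists were chosen with earlier results of these data known. By rule, the miRNAs named were the 10 most abundant, those with an unadjusted p under 0.05 and a mean of at least 100, the 8 highest and 8 lowest fold changes at that mean, up to 4 members of each cluster and list, and the leading member of the 12 largest families. For arm use they were, among hairpins paired by name, the 10 of the largest sum, and the 8 most even and the 8 most different with a sum of at least 1000. miR-708-5p, miR-28-5p, miR-193b-3p, miR-186 and some members of miR-30, miR-34/449 and miR-17-92 lie outside that rule and were picked once their values were known. Alternatives changed the minimum mean, the scaling, the denominator of shares, the cluster gap and the treatment of shared names.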

Additional observations from a re-analysis of the deposited data

How the results depend on the processing

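No paired analysis was possible because the tables hold 1 mean per treatment and no column for a replicate. For the same reason, leaving out each replicate, another normalization of counts and a count test were not run, although they were planned. Of 274 alternatives for the reported results, 261 lay within the limit set for a shift (1.5 times for a count or share, the median approximate error for a log2 ratio) and 13 beyond it. Among alternatives for headline results 22 lay within and 7 beyond, against 239 and 6 for the others. A small log2 ratio could change sign and still lie within this limit. The sign differed in 27. These were 22 of 83 alternatives for clusters, in 12 of 28 clusters, none of whose main values passed 0.20 in size. The others were 5 of 138 for single miRNAs, in 5 of 69, none of whose main values passed 0.07 in size. None of these ratios rests on a test. Unadjusted p under 0.05 was reached by 19 entries over all and by 11 at a mean of at least 100. A difference of 1.5-fold was reached by 15 miRNAs at a mean of at least 100, by 81 at 20 and by 5 at 1000. A 5p share that differs by 10 points was found in 6 hairpins at a sum of at least 100, in 26 at 20 and in 3 at 1000. By another measure, with both arms at a mean of at least 100, 12 hairpins differed by 0.5 in log2 odds. A 5′ U began 44.2% of miRNAs unweighted against 76.9% weighted. Scaling to the median, a shift of 0.02, or to the sum, a shift of -0.07, gave 18 and 16 miRNAs past 1.5-fold. A cluster gap of 50 kb, chosen after seeing the data, gave 96 clusters with 71.8% of the sum. For the miR-30e and miR-30a clusters the median of the members was 0.18 and 0.23, against summed ratios of -0.16 and -0.13. let-7a-2 with miR-100 and miR-125b-1 stood at 0.51 without shared names against 0.19, but then on 2 entries under a mean of 100.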

Other observations

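Peaks of longer Ago2-bound RNA carry the seeds of the abundant miRNAs in numbers that do not follow the miRNA levels closely. Of 24041 peaks in the authors' peak table, 7581 list a seed of at least 1 family. The miR-15/16 family, with 6.09% of the Ago2-bound miRNA, was listed with 994 peaks and miR-17, with 5.70%, with 716. The larger miR-30 family (24.3%) was listed with 335 peaks, miR-196 (14.3%) with 204 and miR-374 (6.05%) with 61. The family of miR-301a-3p and miR-130a-3p, at 0.394%, was listed with 417. Over the 48 families with peaks, Spearman's rho between share and number of peaks was 0.35, a description in which seeds also differ in base composition and whose families are, per the file header, the 50 the authors listed as top.

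GC content and fold change were weakly related across the 303 miRNAs with a sequence and a mean of at least 100, with a Spearman's rho of -0.18, a description over miRNAs of the same libraries. The 101 miRNAs of at least 54.5% GC had a median log2 fold change of -0.06, and the 110 of at most 43.5% had 0.04. Length (rho 0.009) and log2 mean (rho 0.004) showed no such relation.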
